A study of Mus musculus with 9 samples.

Results

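Cathepsins are proteases, most of them active in lysosomes, and 9 of their genes (Ctsw, Ctsb, Ctsl, Ctss, Ctsh, Ctsc, Ctsz, Ctsd and Ctsa) were followed in T follicular helper (Tfh) cells from mouse Peyer's patches. They were taken by gene symbol from a table of 54146 genes, and all 9 were among the 15521 genes with enough counts to be tested. The genes were chosen by measured values, their CPM levels in these libraries: the list was drawn up around Ctsw, which was known to be lower in cells with a Tgfbr1 mutation, so the differences between genotypes in these 9 genes are given as a description and without p-values. The list is not the whole family, and 14 further cathepsin genes are given after it.

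The study compared WT/mut mice, which carry a mutant and a wild-type allele of Tgfbr1, which encodes a chain of the TGF-beta receptor (n = 5 libraries, replicates 6 to 10), with wild-type littermates (WT, n = 4 libraries, replicates 1, 3, 4 and 5). Both groups consisted of CD4+CXCR5+PD1+ cells sorted from Peyer's patches, the lymphoid follicles of the small intestine, and of polyA RNA amplified with a kit for small amounts that keeps no strand information. The mutation itself, age, sex, treatment, litter, sorting day and whether each library was 1 animal are not given in the sources used here, so the spread between libraries may be partly technical. The mutant allele is not stated to be limited to T cells, and both groups are total CD4+CXCR5+PD1+ cells, which can include follicular regulatory T cells.

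Cathepsins are made as inactive precursors, sorted to the lysosome and activated there by cleavage at low pH. Cysteine cathepsins share the papain fold and cut with an active-site cysteine, cathepsin D is an aspartic protease of the pepsin family, and cathepsin A is a serine carboxypeptidase. In antigen-presenting cells, cathepsins S and L trim the invariant chain of MHC class II. In killer cells, cathepsin C removes a dipeptide that keeps granzymes inactive. Cathepsin W, also called lymphopain, is found mainly in cytotoxic T cells and NK cells, and its natural substrate is not established.

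The codon of the active-site cysteine was located in the 7 cysteine cathepsins. Ctsd and Ctsa, which belong to other protease classes, were left out of this search. The codon is shown with 12 coding bases before and 15 after it, 5′ to 3′ on the coding strand, with the cysteine codon in capitals. The sequences are those of the longest coding transcript in GENCODE release M21 (GRCm38, the assembly of mm10), and each held exactly 1 match to the pattern searched, which is a pair of cysteine codons 3 codons apart with a tryptophan or tyrosine codon after them.
Ctsw, minus strand, chr19:5466468-5466470: agctgcaaatgcTGCtgggccatggcagct
Ctsb, plus strand, chr14:63135717-63135719: tcctgcggctctTGTtgggcatttggggca
Ctsl, minus strand, chr13:64367075-64367077: cagtgcgggtctTGTtgggcgtttagcgca
Ctss, plus strand, chr3:95545348-95545350: tcttgtggtgccTGCtgggctttcagtgct
Ctsh, plus strand, chr9:90064522-90064524: gcctgtggcagcTGCtggactttctctacc
Ctsc, plus strand, chr7:88308027-88308029: tcttgtggaagcTGCtactcatttgcctct
Ctsz, minus strand, chr2:174438196-174438198: tactgtggttccTGCtgggcccacggcagc
The coordinates are those of the capital bases. The cysteine codon is TGT in Ctsb and Ctsl and TGC in the other 5 genes. Out of 30 bases, the Ctsb window has 23 at the same position as the Ctsl window, while Ctsw has 14, close to the 13 of Ctsc and of Ctsh. Every window holds the pattern because the windows were found by searching for it. By bases at the same position, the Ctsw window is among those least like that of Ctsl.

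Total counts per library lay between 29488783 and 43872686. WT/mut replicate 7 stood apart, with a count in 30143 genes, against 17904 to 20264 in the other 8 libraries. Tgfbr1 had 73.6 ± 16.5 CPM in WT/mut, against 77.0 ± 20.2 CPM in WT libraries (SD, n = 5 and 4), with a log2 fold change of -0.07 ± 0.21 (SE) and an edgeR adjusted p of 0.921. Its RNA level does not check the genotype labels, since the kind of mutation is unknown. Across all tested genes, 14 were called lower (0.0902%) and 5 higher in WT/mut libraries at an edgeR adjusted p under 0.05, and the median log2 fold change was 0.00. With library totals alone in place of TMM scaling, the calls were 14 lower and 8 higher. The RNAs of the sort markers were present in every library. Cd4 had 804 to 947 CPM in WT/mut, against 614 to 966 CPM in WT. Cxcr5 had 1110 to 1268 CPM in WT/mut, against 1230 to 1380 CPM in WT. Pdcd1 had 1635 to 1987 CPM in WT/mut, against 1497 to 2197 CPM in WT. Outside the naming rule, Icos and Il21 were lower in WT/mut with separate groups, as were 2.38% of all tested genes. Icos averaged 807 CPM in WT/mut, against 1154 CPM in WT (edgeR adjusted p 0.0721, DESeq2 adjusted p 1.84e-05). Il21 averaged 448 CPM in WT/mut, against 657 CPM in WT (edgeR adjusted p 0.142, DESeq2 adjusted p 0.00387). Of 10 sorted cell markers, 7 had a negative and 3 a positive log2 fold change.

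Ctsw was the cathepsin that stood apart between the genotypes. Its gene lies on chromosome 19 at 5465043-5468507 on the minus strand in GENCODE M21, whose entry carries another version number than the identifier in the table, so that its position, exon length and sequence may differ from those behind the counts. In WT/mut libraries it had 8.87, 12.1, 8.94, 13.4 and 11.9 CPM (replicates 6, 7, 8, 9 and 10), against 31.2, 44.3, 41.8 and 26.0 CPM in WT libraries (replicates 1, 3, 4 and 5). All WT/mut libraries were below all WT libraries, and the highest WT/mut value was 51.3% of the lowest WT value. The group means were 11.0 ± 2.03 CPM in WT/mut, against 35.8 ± 8.67 CPM in WT (SD, n = 5 and 4).

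The fitted log2 fold change of Ctsw was -1.70 ± 0.20 (SE), so that WT/mut libraries held 30.8% of the WT level. Ctsw was the single cathepsin among the genes called by edgeR, where 0.122% of all tested genes were called in either direction, and likewise the single one called by DESeq2, which called 1.86% of all genes. This call belongs to the contrast that put Ctsw on the list. These levels rest on 295, 387, 337, 375 and 435 counts in the WT/mut libraries and on 985, 1847, 1438 and 1127 counts in the WT libraries. Counting error at these depths is 2.33% to 5.82% of a value, well under the spread between libraries, which was 18.4% of the mean in WT/mut and 24.2% in WT. In bulk RNA, fewer Ctsw-expressing cells and less Ctsw RNA per cell cannot be told apart. Leaving out any single library kept the log2 fold change between -1.83 and -1.58. Ctsw was no longer among the genes called without WT/mut replicate 6 (-1.63), without WT/mut replicate 7 (-1.73) or without WT replicate 3 (-1.58).

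**Figure D1:**
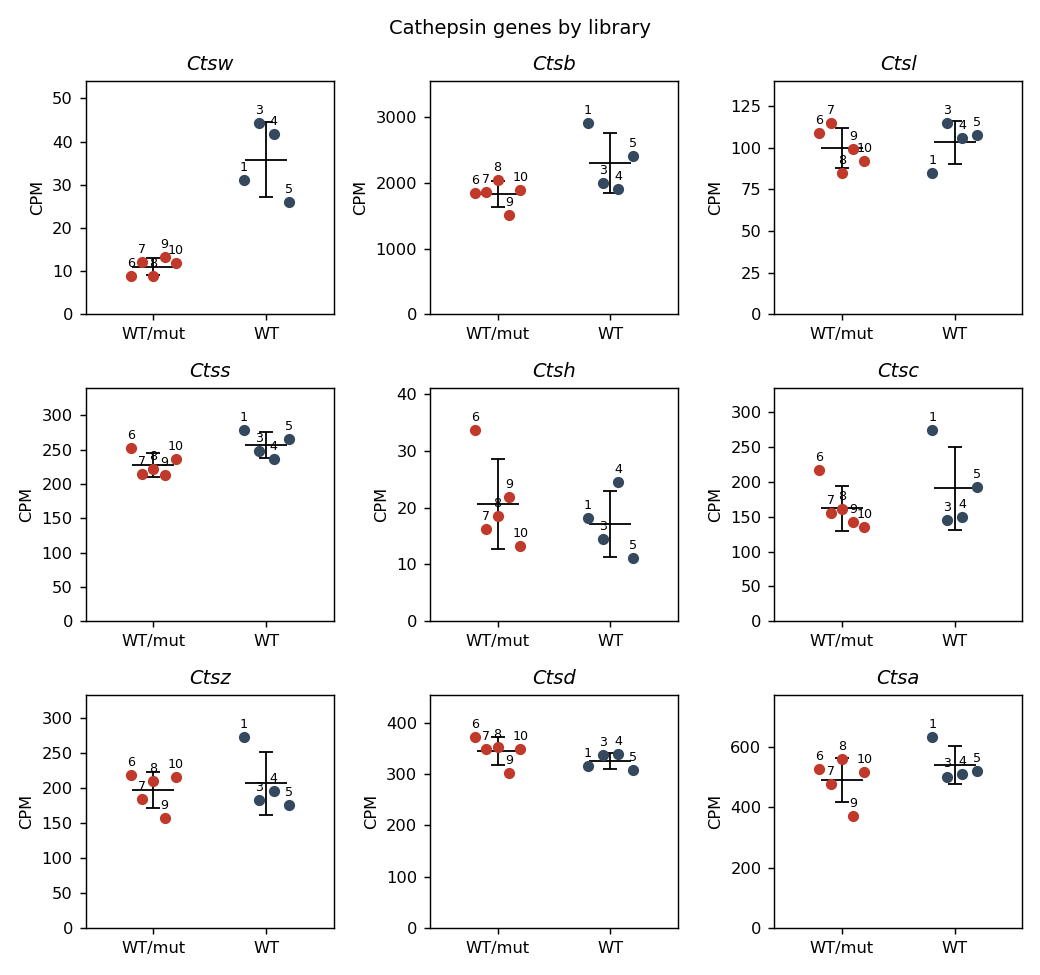
Level of each of the 9 cathepsin genes in CPM (y axes, each starting at 0) in every library, with WT/mut left and WT right. Points are libraries and the horizontal marks with error bars are group means with SD. The groups are separate for Ctsw, at 8.87 to 13.4 CPM in WT/mut, against 26.0 to 44.3 CPM in WT, and they overlap in the other 8 panels.

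Ctsw shares little sequence with other genes. Its exons overlap those of Fibp, a gene on the opposite strand, by 9 bases, or 0.477% of the Ctsw exons. Fibp had 71.9 ± 7.39 CPM in WT/mut, against 72.5 ± 11.2 CPM in WT (SD, n = 5 and 4), a log2 fold change of -0.01 ± 0.13. None of the 2073 stretches of 50 bases in the Ctsw transcripts occurred in the same orientation in a transcript of another gene.

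The other 8 cathepsins had log2 fold changes between -0.33 and 0.28, with standard errors from 0.09 to 0.29. Their values were negative in 6 genes and positive in 2, none was called, and their groups overlapped in all 8 genes. For comparison, 2.38% of all tested genes had every WT/mut library below every WT library and 2.09% had every WT/mut library above. The median log2 fold change over all 9 genes, including Ctsw, around which the list was drawn up, was -0.14. Over all tested genes it was 0.00.

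Ctsb, Ctsl and Ctss are cysteine endopeptidases that break down proteins in the lysosome, and cathepsin B also removes dipeptides from the end of a chain. Ctsb was the most abundant of the 9 genes. It had 1855, 1866, 2039, 1510 and 1896 CPM in WT/mut libraries (replicates 6 to 10), against 2914, 1994, 1911 and 2416 CPM in WT libraries (replicates 1, 3, 4 and 5). WT replicates 1 and 5 were above all WT/mut libraries, while WT replicates 3 and 4 lay within their range. Its log2 fold change was -0.33 ± 0.14, and without WT replicate 1 it was -0.19. The exons of Ctsb overlap those of Fdft1 on the opposite strand by 774 bases, 12.8% of the Ctsb exons. Fdft1 was at 67.7 CPM in WT/mut, against 86.9 CPM in WT on average, a small level beside that of Ctsb.

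Ctss had 252, 214, 221, 213 and 237 CPM in WT/mut libraries, against 279, 248, 236 and 265 CPM in WT libraries. The groups overlapped, since WT/mut replicate 6 exceeded WT replicates 3 and 4, and WT/mut replicate 10 exceeded WT replicate 4. Its log2 fold change was -0.17 ± 0.09 and kept its sign with every library left out in turn, between -0.21 and -0.13. Ctsl had 109, 115, 84.6, 99.0 and 91.8 CPM in WT/mut libraries, against 84.6, 115, 106 and 108 CPM in WT libraries. Both groups covered nearly the same range, and the log2 fold change was -0.05 ± 0.12. Part of the Ctsl value is uncertain, since 6.46% of its 50-base stretches occur in the same orientation in transcripts of other genes. In addition, an antisense transcript overlaps 1742 bases, or 26.8%, of its exons, and the reads carry no strand information.

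Ctsh, Ctsc and Ctsz act at the ends of protein chains: cathepsin H is an aminopeptidase, cathepsin C a dipeptidyl peptidase and cathepsin Z, also called cathepsin X, a carboxypeptidase. Ctsh had 33.7, 16.2, 18.6, 22.0 and 13.2 CPM in WT/mut libraries, against 18.1, 14.5, 24.6 and 11.1 CPM in WT libraries. WT/mut replicate 6 was the highest and the other 4 lay among the WT values. The log2 fold change of Ctsh, 0.28 ± 0.29, was the most positive of the 9 and the least certain, and it was 0.03 without WT/mut replicate 6.

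Ctsc had 217, 156, 160, 142 and 135 CPM in WT/mut libraries, against 275, 145, 149 and 193 CPM in WT libraries. WT replicate 1 was the highest library and the other WT libraries lay within the WT/mut range. Its log2 fold change was -0.23 ± 0.20, and without WT replicate 1 it was 0.00. Ctsz had 218, 184, 210, 157 and 216 CPM in WT/mut libraries, against 273, 183, 195 and 175 CPM in WT libraries. WT replicate 1 was again the highest and WT/mut replicate 9 the lowest. Its log2 fold change was -0.07 ± 0.15, and it was 0.10 without WT replicate 1.

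Ctsd, the aspartic protease, had 373, 349, 354, 302 and 348 CPM in WT/mut libraries, against 316, 338, 339 and 309 CPM in WT libraries. Of the WT/mut libraries, 4 were above all WT libraries and replicate 9 was below them, and the log2 fold change was 0.09 ± 0.09. In the annotation 32.4% of its 50-base stretches also belong to Gm49369, an overlapping gene model on the same strand, so the Ctsd value is uncertain where reads could be assigned to either. Ctsa, the serine carboxypeptidase that also protects beta-galactosidase and neuraminidase in the lysosome, had 526, 479, 559, 372 and 517 CPM in WT/mut libraries, against 634, 502, 509 and 519 CPM in WT libraries. WT replicate 1 was the highest library and WT/mut replicate 9 the lowest, and the log2 fold change was -0.14 ± 0.13. Exons of Pltp and Neurl2 on the opposite strand overlap 495 and 324 bases of the Ctsa exons.

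The same libraries were at the extremes in several genes. WT replicate 1 was the highest of the 9 libraries for Ctsa, Ctsb, Ctsc, Ctss and Ctsz, 5 of the 9 genes. WT/mut replicate 9 was the lowest for Ctsa, Ctsb, Ctsd, Ctss and Ctsz, also 5 genes. The summed level of the 9 genes was 2831 to 3656 CPM in WT/mut, against 3513 to 4824 CPM in WT, so these sums overlapped. Within that sum Ctsb took 51.6% to 55.8% in WT/mut and 54.4% to 60.4% in WT. Ctsw took 0.245% to 0.472% in WT/mut and 0.646% to 1.24% in WT. The Ctsw share was thus lower in each WT/mut library than in each WT library.

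**Figure D2:**
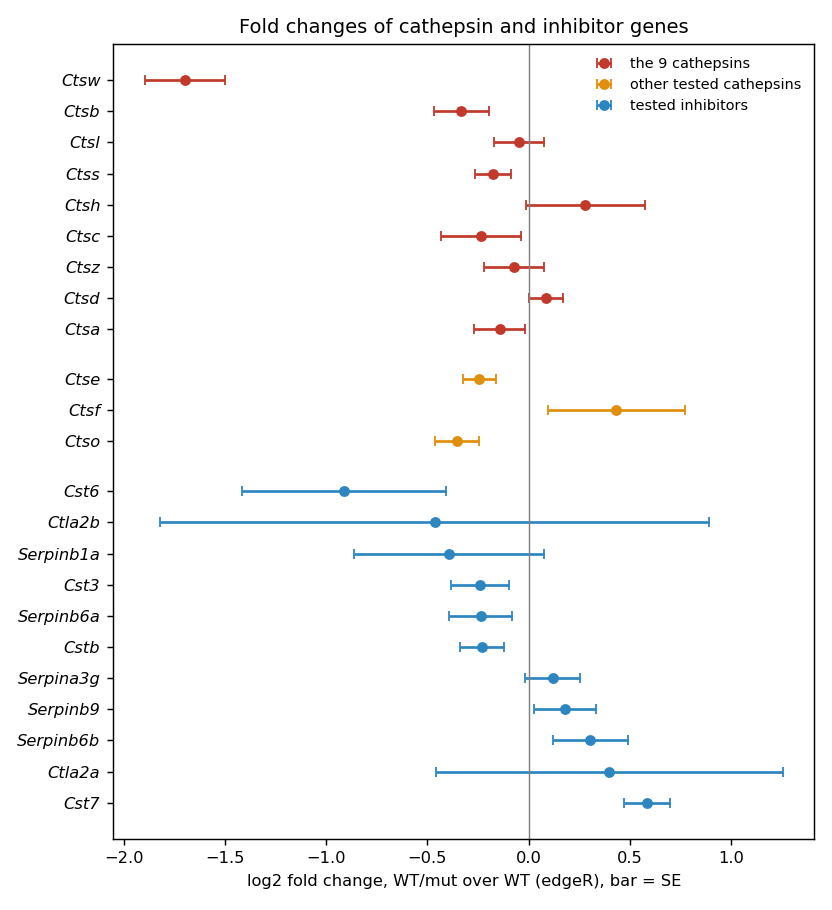
Log2 fold change of WT/mut over WT (x axis) with its SE for the 9 cathepsins, the other tested cathepsins and the tested inhibitor genes (rows). Ctsw lies at -1.70, apart from the other cathepsins, and Cst7 lies at 0.59 among the inhibitors.

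Levels of different genes can be compared once they are divided by length. As CPM per kilobase of exon, the order in WT/mut was Ctsb (303), Ctss (168), Ctsd (147), Ctsz (137), Ctsa (104), Ctsc (27.9), Ctsl (15.4), Ctsw (5.85) and Ctsh (4.61). In WT the order was Ctsb (382), Ctss (189), Ctsz (144), Ctsd (138), Ctsa (115), Ctsc (32.8), Ctsw (19.0), Ctsl (15.9) and Ctsh (3.80), in the same unit. Several neighbours in these orders did not differ beyond their spread. In WT/mut the ranges of Ctss and Ctsd, of Ctsd and Ctsz, of Ctsz and Ctsa, and of Ctsw and Ctsh overlapped. In WT those of Ctss and Ctsz, of Ctsz and Ctsd, of Ctsd and Ctsa, and of Ctsw and Ctsl overlapped. Ctsw stood at 4.70 to 7.08 CPM per kilobase in WT/mut, below every value of Ctsl there (13.0 to 17.7), whereas in WT its 13.8 to 23.5 CPM per kilobase overlapped those of Ctsl (13.0 to 17.7). With coding length as the divisor Ctsw ranked 9 in WT/mut and 8 in WT. Its means were then 9.92 CPM per kilobase in WT/mut and 32.2 in WT, against 99.6 and 103 for Ctsl. The overlap of Ctsw and Ctsl in WT thus depends on the length used, since Ctsl has 6489 exon bases and 1002 coding bases.

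**Figure D3:**
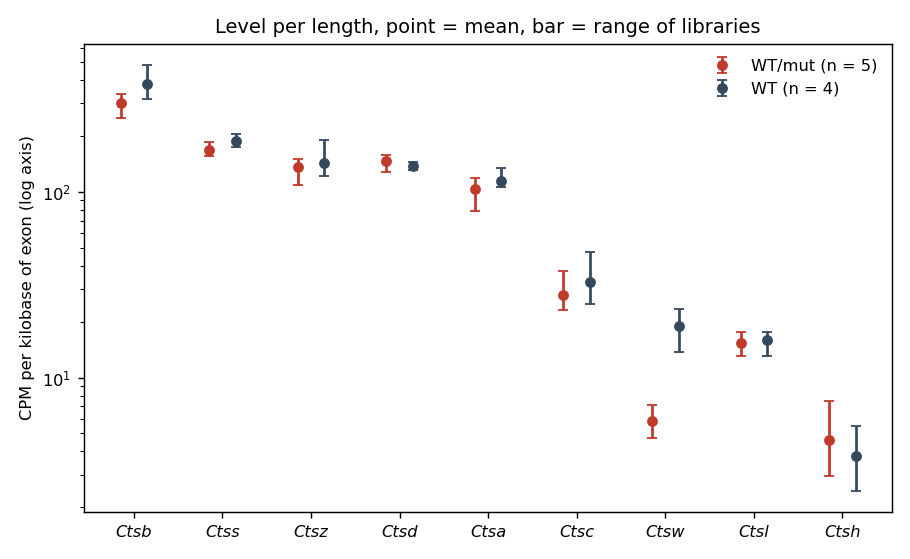
CPM per kilobase of exon (log axis) of the 9 cathepsins in WT/mut and WT libraries, ordered by level in WT. Points are group means and bars span the lowest to the highest library (n = 5 and 4). Ctsw lies at 4.70 to 7.08 in WT/mut, next to Ctsh, and at 13.8 to 23.5 in WT, next to Ctsl. By coding length, not plotted, the WT means were 32.2 for Ctsw and 103 for Ctsl.

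Of the 14 other cathepsin genes, 3 had enough counts to be tested, and edgeR called none. Ctse, an aspartic protease of endosomes, was well expressed, with 608, 552, 607, 534 and 637 CPM in WT/mut libraries, against 713, 655, 716 and 698 CPM in WT libraries. All WT/mut libraries were below all WT libraries, by a small margin, with a log2 fold change of -0.24 ± 0.08 and an edgeR adjusted p of 0.314. Ctso, a cysteine cathepsin, had 132, 115, 117, 139 and 134 CPM in WT/mut libraries, against 156, 155, 146 and 194 CPM in WT libraries. These groups were separate too, with a log2 fold change of -0.35 ± 0.11 and an edgeR adjusted p of 0.278. Ctse and Ctso were the 2 of these genes with an unadjusted p under 0.05, while DESeq2 and limma-voom called neither. Ctsf, another cysteine cathepsin, averaged 11.0 ± 4.61 CPM in WT/mut, against 8.17 ± 1.71 CPM in WT (SD, n = 5 and 4; log2 fold change 0.43 ± 0.34, edgeR adjusted p 0.605).

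The remaining 11 were at the edge of detection. Ctsk, the collagen-degrading cathepsin of osteoclasts, summed to 24 counts in the WT/mut libraries and 9 in the WT libraries. The placental genes Cts8 and Cts3 had 34 and 14 counts in WT/mut replicate 7, the library that stood apart, and 0 in the other WT/mut libraries, against 4 and 0 counts in all WT libraries together. Ctsq, Cts6, Cts7 and Ctsm likewise had 5 or fewer counts in WT/mut replicate 7, 0 in the other WT/mut libraries and 0 in WT, and Ctsr had 0 in WT/mut and 2 in WT, and Ctsg, Ctsj and Ctsll3 had none. Per kilobase, Ctse stood at 185 CPM in WT/mut, against 219 CPM in WT, next to Ctss in the order above. Ctso stood at 24.9 CPM per kilobase in WT/mut and 31.8 in WT, next to Ctsc.

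Cathepsin activity is limited by cystatins, stefins and serpins. Of 17 inhibitor genes listed, 15 were in the table and 11 were tested, of which 5 had a positive and 6 a negative log2 fold change (median -0.23). EdgeR called none of them. Cst7 encodes cystatin F, an inhibitor made by T cells, NK cells and myeloid cells that acts on cathepsin C among others. It had 79.4, 81.6, 73.0, 85.2 and 81.1 CPM in WT/mut libraries, against 54.1, 61.3, 54.9 and 43.0 CPM in WT libraries. Every WT/mut library was above every WT library. The log2 fold change was 0.59 ± 0.11, with an edgeR adjusted p of 0.0936, which misses the threshold of 0.05, and a DESeq2 adjusted p of 0.000573. It was the only tested inhibitor with an unadjusted p under 0.05.

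The other inhibitors of lowest p were Cstb, Cst6 and Cst3. Cstb, the cytosolic stefin B, averaged 69.2 CPM in WT/mut, against 81.1 CPM in WT (log2 fold change -0.23 ± 0.11, edgeR adjusted p 0.431). Cst3, the secreted cystatin C, averaged 84.5 CPM in WT/mut, against 99.9 CPM in WT (log2 fold change -0.24 ± 0.14, edgeR adjusted p 0.501). Cst6, cystatin E/M, was near the limit of detection at 1.07 CPM in WT/mut, against 2.02 CPM in WT (log2 fold change -0.91 ± 0.50, edgeR adjusted p 0.477). The summed level of the inhibitor genes was 380 to 425 CPM in WT/mut, against 381 to 425 CPM in WT.

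The machinery around the cathepsins was examined in 9 lists of 119 genes, 100 of them tested. The lists include the 14 other cathepsins and the inhibitors above but not the 9 cathepsins themselves. EdgeR and limma-voom called none of the 100 genes, and DESeq2 called 2 higher (Cst7 and Ciita) and 1 lower (Stx11), where it called 0.989% of all its tested genes higher and 0.873% lower. At an unadjusted edgeR p under 0.05, 12 were lower and 4 higher in WT/mut, 16.0% of the 100, against 12.2% of all tested genes. All WT/mut libraries lay below all WT libraries in 8 of the genes and above in 1, against 2.38% and 2.09% of all tested genes.

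Among the other lysosomal proteases, all 7 tested genes had a negative log2 fold change (median -0.20). Scpep1, a serine carboxypeptidase, averaged 72.7 ± 4.20 CPM in WT/mut, against 91.0 ± 15.3 CPM in WT, with separate groups (SD, n = 5 and 4; log2 fold change -0.32 ± 0.12, edgeR adjusted p 0.329). Prcp, another carboxypeptidase, Tpp1, the tripeptidyl peptidase, and Dpp7, a dipeptidyl peptidase, had log2 fold changes of -0.42 ± 0.19, -0.23 ± 0.11 and -0.20 ± 0.10, with edgeR adjusted p from 0.414 to 0.444.

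Of the 22 lysosomal glycosidases and lipases, 14 had a negative and 8 a positive log2 fold change (median -0.08). Among those of lowest p were Fuca1 (-0.44 ± 0.16), a fucosidase, Asah1 (-0.30 ± 0.13), a ceramidase, and Glb1 (-0.37 ± 0.15), the beta-galactosidase that cathepsin A protects. Their edgeR adjusted p lay between 0.339 and 0.384, and each had overlapping groups.

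Of the 22 genes of the lysosomal membrane and proton pump, 18 had a negative log2 fold change (median -0.19). Lamp1, the main membrane glycoprotein, averaged 625 ± 53.4 CPM in WT/mut, against 724 ± 17.5 CPM in WT, with separate groups (SD, n = 5 and 4; log2 fold change -0.21 ± 0.09, edgeR adjusted p 0.367). Laptm4a, a small membrane protein, averaged 142 CPM in WT/mut, against 164 CPM in WT, also with separate groups (-0.21 ± 0.08, edgeR adjusted p 0.367). The pump subunits Atp6v1d and Atp6v1b2 had log2 fold changes of -0.33 ± 0.15 each, with an edgeR adjusted p of 0.411 each.

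Enzyme sorting to the lysosome was measured with 9 genes of the mannose 6-phosphate and sortilin routes, 4 positive and 5 negative (median -0.02). Gga2, an adaptor that loads the receptors into vesicles, averaged 29.5 CPM in WT/mut, against 20.4 CPM in WT (log2 fold change 0.53 ± 0.23, edgeR adjusted p 0.393). M6pr, a mannose 6-phosphate receptor, averaged 329 CPM in WT/mut, against 362 CPM in WT (-0.14 ± 0.09, edgeR adjusted p 0.528). The adaptor Gga1 was at 0.11 ± 0.12, and the sorting receptor Sort1 was barely detected, at 0.65 CPM in WT/mut, against 1.32 CPM in WT (-1.02 ± 0.95). Of the MiT/TFE factors, which drive lysosomal genes, Tfe3 averaged 87.4 ± 6.97 CPM in WT/mut, against 111 ± 9.31 CPM in WT with separate groups (SD, n = 5 and 4; -0.35 ± 0.10, edgeR adjusted p 0.260). Tfeb averaged 24.1 CPM in WT/mut, against 25.8 CPM in WT (-0.09 ± 0.21), and Mitf was below 1 CPM on average in both groups.

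Ctsw is listed here beside genes of cytotoxic granules because of where it is best known. Of 14 granule genes 13 were tested, 5 with a positive and 8 with a negative log2 fold change (median -0.17). Stx11, a syntaxin needed for granule release, had 441, 378, 462, 373 and 466 CPM in WT/mut libraries, against 625, 523, 576 and 738 CPM in WT libraries. The groups were separate, with a log2 fold change of -0.54 ± 0.12, an edgeR adjusted p of 0.137 and a DESeq2 adjusted p of 0.00257. Rab27a, which docks granules, averaged 68.8 CPM in WT/mut, against 59.5 CPM in WT (0.21 ± 0.11, edgeR adjusted p 0.450), and Stxbp2, the partner of syntaxin 11, averaged 166 CPM in WT/mut, against 187 CPM in WT (-0.17 ± 0.15, edgeR adjusted p 0.641). Outside the naming rule and given for their role, the effector genes were low in both groups: Prf1, perforin, averaged 13.3 CPM in WT/mut, against 11.2 CPM in WT, and Gzmb, granzyme B, averaged 2.33 CPM in WT/mut, against 1.72 CPM in WT.

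Markers of other cells were summed per library beside Ctsw. The 11 CD8 T and NK cell markers summed to 40.0, 42.1, 21.6, 31.6 and 13.7 CPM in WT/mut libraries (replicates 6 to 10), against 28.4, 39.8, 26.7 and 25.6 CPM in WT libraries (replicates 1, 3, 4 and 5). These sums overlapped, and of the defining markers Cd8a, Klrb1c, Ncr1, Klrd1 and Klrk1 were each at 0 in at least 1 library. Tyrobp and Fcer1g, at 15.8 and 11.8 CPM, made up most of the sum in WT/mut replicate 6. That library also had the highest myeloid marker sum, 517 CPM. The sums may thus not reflect CD8 T and NK cells alone, and the list was not summed without Tyrobp and Fcer1g. Single markers of the list varied between libraries. In the WT libraries Ncr1 had 0 counts throughout and Klrb1c had 53, 0, 45 and 21 counts. Xcl1 had 47, 645, 94 and 51 counts there, and Klrg1 had 272, 98, 174 and 525 counts. In the WT/mut libraries Xcl1 had 33, 169, 70, 120 and 58 counts, and Klrg1 had 197, 66, 80, 228 and 52 counts. Of the 8 markers tested, 5 had a negative and 3 a positive log2 fold change (median -0.06). Cd8a averaged 0.385 CPM in WT/mut, against 1.03 CPM in WT. Cd8b1, with counts in every library, averaged 3.52 CPM in WT/mut, against 3.64 CPM in WT. Fcer1g and Tyrobp had higher means in WT/mut, at 5.40 and 7.86 CPM, against 2.79 and 5.99 CPM in WT. The part of such cells in the Ctsw level was not tested.

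Summed plasma cell markers were separate between the genotypes, although edgeR called none of the genes. The sum over 10 genes was 1425, 1624, 1343, 806 and 638 CPM in WT/mut libraries, against 355, 375, 607 and 334 CPM in WT libraries, without overlap. Split after the values were seen, Igha, Igkc and Jchain together had 398 to 1369 CPM in WT/mut, against 83.9 to 370 CPM in WT. The other 7 genes had 241 to 283 CPM in WT/mut, against 226 to 271 CPM in WT, and overlapped. Most of this second sum was Xbp1, at 194 CPM in WT/mut, against 201 CPM in WT on average. Prdm1 averaged 18.1 CPM in WT/mut, against 9.46 CPM in WT, and Mzb1 averaged 9.74 CPM, against 4.43 CPM. Derl3 and Irf4 also had higher means in WT/mut, Sdc1 had a lower one, and Tnfrsf17 was near 0 in both groups. Red cell markers summed to 401 to 870 CPM in WT/mut, against 98.5 to 282 CPM in WT, also without overlap. B cell markers summed to 277 to 652 CPM in WT/mut, against 136 to 360 CPM in WT, and myeloid markers to 87.6 to 517 CPM in WT/mut, against 84.4 to 283 CPM in WT. Epithelial markers summed to 31.7 to 243 CPM in WT/mut, against 43.1 to 498 CPM in WT, stromal markers to 157 to 225 CPM in WT/mut, against 144 to 196 CPM in WT, and regulatory T cell markers to 1100 to 1344 CPM in WT/mut, against 1139 to 1331 CPM in WT. The 10 markers of the sorted cells summed to 7971 to 8466 CPM in WT/mut, against 8902 to 9540 CPM in WT, without overlap. Of the 83 marker genes tested, edgeR and limma-voom called 0, 14 were higher and 6 lower at an unadjusted edgeR p under 0.05, and DESeq2 called 6 higher and 2 lower. Over all tested genes the share at that unadjusted p was 12.2%, and DESeq2 called 0.989% higher and 0.873% lower.

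The part of these other cells in the cathepsin levels was not tested, and models with marker covariates are given as a description. With the mean level of the plasma cell markers in the model, the log2 fold change of Ctsw was -1.78, and edgeR then called no gene in either direction, with 223 higher and 329 lower at an unadjusted p under 0.05. With the myeloid markers in the model, Ctsw stayed among the genes called. The plasma marker sums did not overlap between the groups, at 638 to 1624 CPM in WT/mut, against 334 to 607 CPM in WT. A model with the plasma cell covariate therefore cannot separate plasma cell content from genotype.

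**Figure D4:**
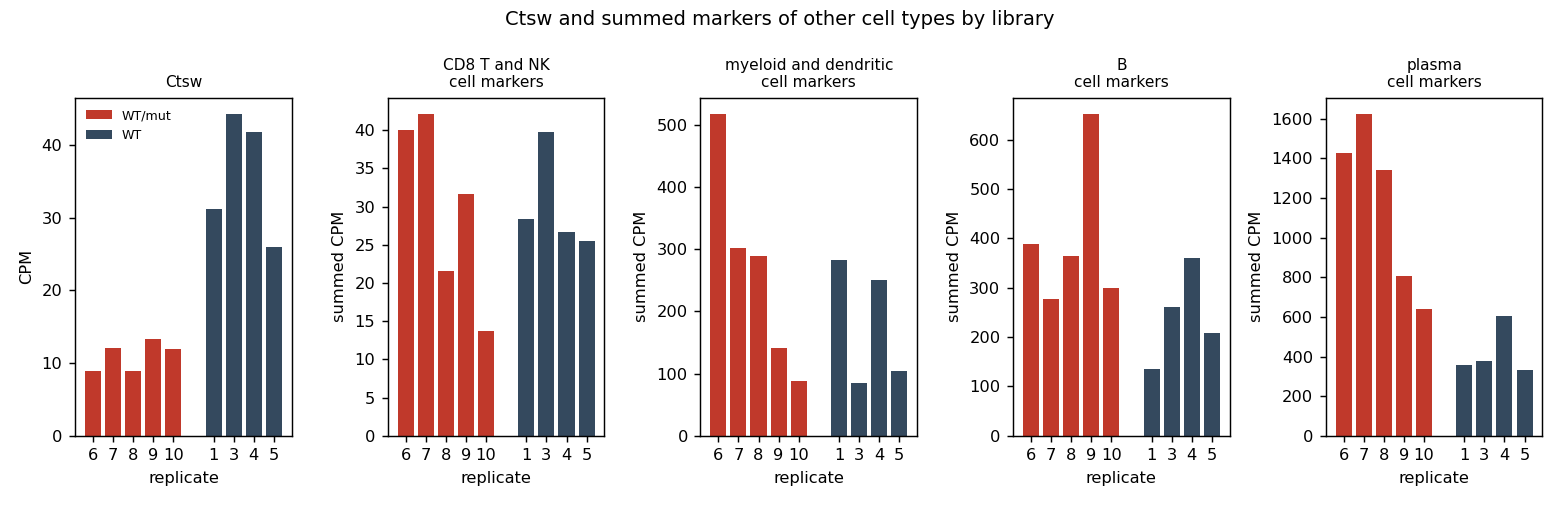
Ctsw level and summed levels of the CD8 T and NK cell, myeloid and dendritic cell, B cell and plasma cell markers (y axes from 0, CPM) by replicate (x axis), WT/mut left and WT right. Each bar is 1 library. Ctsw and the plasma cell sum are separate between the groups, in opposite directions. The CD8 T and NK cell sums, 13.7 to 42.1 CPM in WT/mut, against 25.6 to 39.8 CPM in WT, overlap. Tyrobp and Fcer1g make up most of that sum in WT/mut replicate 6.

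The profile of Ctsw over the 9 libraries was compared with that of 8909 genes with a mean of at least 10 CPM, by the root mean square difference of log2 CPM after each gene was centred on its own mean. The median difference was 0.896 log2 units. The 5 closest genes were Apol9a (0.315), Apol9b (0.373), Fst (0.418), Nectin3 (0.431) and Fam3c (0.444). All 5 had lower means in WT/mut, as the measure favours genes that share the gap between the groups. Apol9a and Apol9b, apolipoprotein L genes that are near-identical copies and so uncertain in how reads were divided between them, averaged 8.94 ± 2.13 and 12.9 ± 2.73 CPM in WT/mut, against 20.8 ± 4.91 and 33.7 ± 5.93 CPM in WT (SD, n = 5 and 4). Fst, follistatin, an inhibitor of activins, averaged 11.2 ± 2.40 CPM in WT/mut, against 24.5 ± 4.57 CPM in WT (edgeR adjusted p 0.0649). Nectin3, an adhesion molecule, averaged 12.2 ± 2.48 CPM in WT/mut, against 31.4 ± 4.90 CPM in WT (edgeR adjusted p 0.0237). Fam3c, a secreted protein, averaged 75.7 ± 4.29 CPM in WT/mut, against 161 ± 22.6 CPM in WT (edgeR adjusted p 0.00487). By this measure the other 8 cathepsins could not be among the closest genes, since their log2 fold changes lay between -0.33 and 0.28. They lay on both sides of the median difference. Ctsb (0.805 log2 units, rank 1196 of the 8909 genes), Ctss (0.823), Ctsl (0.856) and Ctsa (0.864) were nearer to Ctsw than the median gene. Ctsz (0.904), Ctsc (0.908), Ctsd (0.926) and Ctsh (1.09) were farther from it.

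**Figure D5:**
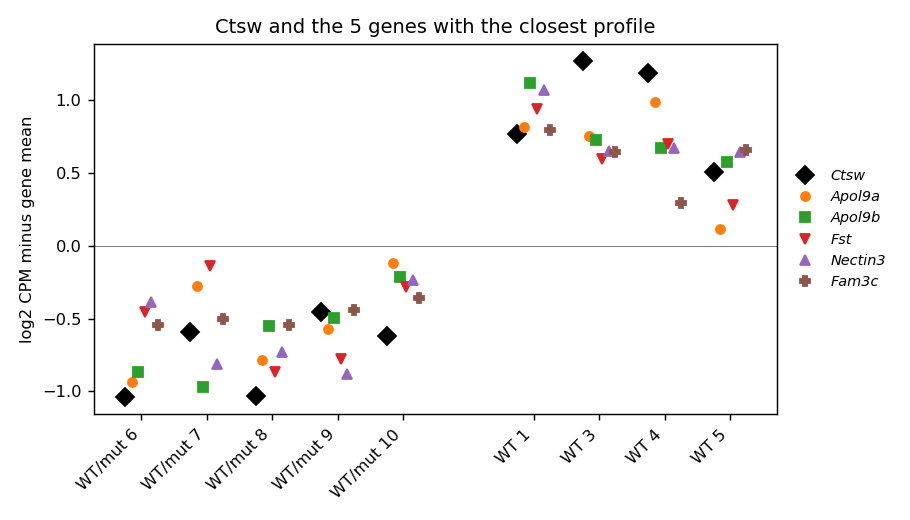
Log2 CPM minus the gene's mean over the 9 libraries (y axis) for Ctsw and the 5 genes with the closest profile, by library with WT/mut left and WT right. All 6 genes lie below 0 in the WT/mut libraries and above 0 in the WT libraries.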

How the data were processed

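Per the labels' protocols, 300 pg of RNA from sorted Tfh cells went into a non-stranded SMART-Seq kit. The authors deposited 1 table of expected counts per gene; RSEM 1.3.0, STAR 2.5.3, cutadapt 2.10, DESeq2 and the mm10 build are named in the submitters' processing notes, and no source used here gives the annotation release. RSEM divides reads between similar genes by a model, and 11.1% to 18.3% of values per library were not whole. Expected counts were rounded to whole numbers. Of 54146 gene identifiers, 54079 were found in GENCODE M21 without regard to version; positions, lengths and sequences are from there.

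The test was the robust quasi-likelihood F test of edgeR 4.0.16 (R 4.3.3) with TMM scaling and no covariate, on 15521 genes passing filterByExpr (minimum count 10, minimum total 15), with Benjamini-Hochberg adjustment over all of them and a threshold of 0.05. It was checked on simulated counts. Standard errors (SE) were taken as the size of the log2 fold change over the root of F. CPM uses TMM-scaled library sizes; log2 CPM for profiles has a prior count of 2. Intervals of counting error assume independent reads, although the kit adds no molecular identifiers.

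The members, gene lists and comparisons were chosen with earlier results of these data known. The text names the 9 members, other cathepsins with counts, up to 4 genes of lowest p per pathway list, marker sums, Tgfbr1 and the 5 profiles closest to Ctsw; exceptions are marked, and 1 gene that the rule names is not reported here. Alternatives were DESeq2 1.42.0, limma-voom (limma 3.58.1), RLE factors, library totals alone, no filter, a non-robust fit, 3 covariates, 2 other lengths and leaving out each library. The inhibitor genes Csta2 and Csta3 were not analysed here.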

Additional observations from a re-analysis of the deposited data

Results flagged for a closer look

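Of 18 sets of values checked, the 9 cathepsins in each genotype, 1 had a library far from the rest of its group. Ctsa was at 634 CPM in WT replicate 1, while the other 3 WT libraries lay between 502 and 519 CPM. Chance alone flags about 1 in 20 such sets. WT replicate 1 was also the highest library for Ctsb, Ctsc, Ctss and Ctsz, and the cause was not tested.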

How the results depend on the processing

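The direction of Ctsw was the same in all 18 alternatives, with a log2 fold change between -1.83 and -1.58, and it was called in 13 of them. These alternatives refit the libraries that put Ctsw on the list, so they describe the effect of processing and are not independent support. It was not called in the model with a detected-gene covariate (-1.74), with plasma cell markers as a covariate (-1.78), or without WT/mut replicate 6, WT/mut replicate 7 or WT replicate 3. Counts of called genes moved more: against 5 higher and 14 lower, DESeq2 gave 153 and 135, library totals alone 8 higher, no filter 8 higher, the detected-gene covariate 0 and 1, the plasma cell covariate 0 and 0, and the myeloid covariate 1 and 4. Leaving out each library gave 0 to 12 higher and 2 to 11 lower. At an unadjusted edgeR p under 0.05, 621 genes were higher and 584 lower with the detected-gene covariate. Without a library, at least 646 were higher at that level.

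With the plasma cell covariate the sign turned for Ctsd (-0.016), Ctsh (-0.51), Ctsz (0.094), Ctsf (-0.034), Cstb (0.071), Cst3 (0.086), Atp6v1d (0.079), Atp6v1b2 (0.029), Stxbp2 (0.0039), H2-Eb1 (-0.28) and H2-Aa (-0.17). With limma-voom it turned for Sort1 (0.078). With a library left out the sign turned within the ranges of Ctsc (-0.36 to 0.00052), Ctsl (-0.13 to 0.0065), Ctsz (-0.14 to 0.099), Tfeb (-0.25 to 0.14) and Tgfbr1 (-0.22 to 0.074). None of these genes was called, and the cause was not tested.

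By the longest transcript 2 genes changed rank in WT/mut and 3 in WT, and by coding length 5 and 6. No paired analysis was possible because the groups share no replicate number.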

Other observations

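MHC class II genes, whose products cathepsins S and L serve in antigen-presenting cells, were measured in all 9 libraries. Of 11 genes tested, 9 had a positive and 2 a negative log2 fold change (median 0.39), and edgeR called none, with 2 higher and 1 lower at an unadjusted p under 0.05, which 12.2% of all tested genes had. Limma-voom called none and DESeq2 called Ciita. Ciita, the master regulator of the class II genes, had 15.2, 20.7, 21.5, 31.4 and 16.8 CPM in WT/mut libraries, against 5.45, 6.28, 16.4 and 10.7 CPM in WT libraries. Its groups overlapped through WT/mut replicate 6 and WT replicate 4 (log2 fold change 1.12 ± 0.33, edgeR adjusted p 0.274, DESeq2 adjusted p 0.0438). H2-Eb1 and H2-Aa, the class II chains, averaged 116 and 179 CPM in WT/mut, against 69.3 and 118 CPM in WT (log2 fold changes 0.74 ± 0.34 and 0.61 ± 0.31, edgeR adjusted p 0.410 and 0.455). H2-Ob, a chain of the H2-O modulator found in B cells, was at 53.7 ± 8.61 CPM in WT/mut, against 76.1 ± 13.9 CPM in WT with separate groups (SD, n = 5 and 4; -0.50 ± 0.15, edgeR adjusted p 0.278). The summed level of the 11 genes was 1363 to 2622 CPM in WT/mut, against 1079 to 2069 CPM in WT. B cell markers summed to 277 to 652 CPM in WT/mut, against 136 to 360 CPM in WT, and their part in these levels was not tested.

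As shares of the summed level of the 9 cathepsins, Ctsd took 9.69% to 10.7% in WT/mut and 6.55% to 9.66% in WT, so that each WT/mut library lay above each WT library, by a narrow margin. In CPM the groups of Ctsd overlapped. This share was singled out after its values were seen, and Ctsb, the largest term of the sum, bears on it.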
